A study of Mus musculus with 26 samples.

Results

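The G2/M and mitosis genes described here are 40 genes that act from the end of G2 phase through cytokinesis, each found by its symbol in a table of 46517 genes. All 40 were present, and all 40 passed the filter on low values that left 16372 genes for testing. Their RNA was measured by bulk RNA sequencing in 26 libraries of sorted mouse thymocytes from 3 T cell receptor transgenic lines at 3 stages, with 3 libraries per group except TG6 at late positive selection, which had 2. OT-1 mice (OT-1tg Rag2KO, strain C57/BL6) carried a receptor of high self-reactivity, F5 mice (F5tg Rag1KO, strain C57/BL6) a receptor of intermediate self-reactivity, and TG6 mice (TG6tg H2b/d, from C57/BL6 crossed with B6.C-H2d/bByJ) a receptor of low self-reactivity. A Rag deletion was given for OT-1 and F5 and not for TG6, so line, Rag genotype and strain cannot be told apart. No group was treated with an agent, and the methods give an age range in weeks for the mice of the study but no age for each group. The early stage was the CD4+CD8+CXCR4+CCR7- gate, the late stage was CD4+CD8+CXCR4-CCR7+, and the mature CD8 single-positive (CD8SP) stage was CD4-CD8+CXCR4-CCR7+. The labels call the libraries of a group biological replicates, and p-values here measure the spread between them.

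Entry into mitosis is driven by cyclin B bound to the kinase Cdk1, which Cdc25 phosphatases switch on. The chromosomes then attach to spindle microtubules through kinetochores, and the spindle checkpoint holds back Cdc20 and the anaphase-promoting complex until every chromosome is attached. Separase then cuts cohesin, and the central spindle and an actomyosin ring divide the cell. Most genes of this programme are switched on together late in the cell cycle through a promoter element, the cell cycle genes homology region (CHR), bound by the MuvB complex with B-Myb or FoxM1, often near CCAAT boxes bound by NF-Y. In the thymus, division is rapid before positive selection, resting double-positive cells make up most of the organ, and maturing single-positive cells divide again before they leave.

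The promoters of 4 members are printed because the members moved together across stages, and Kif23, which did not follow them, carries the same elements. Each is a window of 300 bases, 250 before to 50 after the start of transcription, read 5′ to 3′ on the strand of the gene from RefSeq sequence of GRCm38.p6. Capitals mark TTTGAA (the CHR) and CCAAT, searched on both strands, where ATTGG is CCAAT on the other strand. The windows lie at chr9:70421505-70421804 on the minus strand for Ccnb2, chr10:69352863-69353162 (minus) for Cdk1, chr7:135716330-135716629 (minus) for Mki67 and chr9:61946750-61947049 (minus) for Kif23.
Ccnb2: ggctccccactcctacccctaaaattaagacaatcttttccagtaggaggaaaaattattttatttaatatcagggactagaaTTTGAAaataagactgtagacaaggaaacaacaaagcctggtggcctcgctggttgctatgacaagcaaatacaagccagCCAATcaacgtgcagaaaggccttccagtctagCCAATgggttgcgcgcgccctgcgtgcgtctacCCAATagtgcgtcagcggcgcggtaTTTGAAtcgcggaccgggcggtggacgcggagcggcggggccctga
Cdk1: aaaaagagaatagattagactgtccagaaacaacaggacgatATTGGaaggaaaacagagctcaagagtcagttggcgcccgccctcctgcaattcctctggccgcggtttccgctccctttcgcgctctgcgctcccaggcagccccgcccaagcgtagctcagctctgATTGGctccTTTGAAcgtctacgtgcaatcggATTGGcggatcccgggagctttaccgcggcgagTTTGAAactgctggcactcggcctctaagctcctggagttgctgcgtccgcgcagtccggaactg
Mki67: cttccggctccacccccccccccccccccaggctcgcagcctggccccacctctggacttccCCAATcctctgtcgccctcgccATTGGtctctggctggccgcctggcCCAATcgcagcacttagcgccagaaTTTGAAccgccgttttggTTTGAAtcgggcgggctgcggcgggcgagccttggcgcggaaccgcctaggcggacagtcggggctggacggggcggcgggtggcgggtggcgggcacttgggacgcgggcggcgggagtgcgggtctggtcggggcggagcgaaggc
Kif23: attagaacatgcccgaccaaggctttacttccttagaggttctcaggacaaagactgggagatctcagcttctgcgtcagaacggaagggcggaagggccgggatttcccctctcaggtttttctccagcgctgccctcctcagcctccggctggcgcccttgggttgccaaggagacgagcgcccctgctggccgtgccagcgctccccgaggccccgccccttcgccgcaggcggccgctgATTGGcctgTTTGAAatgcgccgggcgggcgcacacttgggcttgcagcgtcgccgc
In Ccnb2, TTTGAA began 167 bases before the start and at base 4 after it, with CCAAT beginning 21, 54 and 87 bases before the start. In Kif23, a TTTGAA began at base 2 after the start, and a CCAAT on the other strand 7 bases before it. RefSeq promoters were matched for 33 of the 40 members. TTTGAA was present in 23 of these 33 (69.7%), against 20.2% of 27025 genes with a promoter in the table, and CCAAT in 25 of 33 (75.8%), against 41.1%. A TTTGAA or the variant TTCGAA together with CCAAT was present in 66.7% of matched members and in 8.61% of all genes. These shares count letters in a window and do not say which factor binds there.

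Values are the deposited counts, normalized between libraries by the median-of-ratios method, which summed to between 16134786 and 18944173 per library. Fold changes, with their standard errors (SE), are on the log2(normalized count + 1) scale, which understates changes of low values, and adjusted p-values are from limma with Benjamini-Hochberg adjustment over all 16372 genes tested, with a gene called below 0.05. Markers of the gates were checked at the RNA level. Cd3e was between 4798 and 8667 normalized counts in every library, Cd4 fell from between 7980 and 22731 at the early stage to between 62.8 and 461 at the mature stage, and Ccr7 was between 112 and 863 early and between 2698 and 12719 at the later stages. Cxcr4 did not separate the mature from the early gate, with 1425 to 5527 normalized counts early, 350 to 2561 late and 1219 to 4031 mature. Fewer dividing cells and less RNA per dividing cell cannot be told apart in bulk samples.

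A pair of libraries stood apart from the rest of their groups in these genes. TG6 mature 3 was above both other TG6 mature libraries for 40 of 40 members, by a median of 1.93 on the log2 scale, with the smallest excess for Kif23 (0.79) and the largest for Ccna2 (2.28). F5 late 2 was above the other F5 late libraries for 38 of 40, by a median of 3.03, from -0.13 for Cenpa to 6.31 for Cenpf. Among the gate markers, F5 late 2 had the highest Cd4 (10664 against 5160 and 7981) and the lowest Ccr7 (2698 against 7609 and 3615) of its group. TG6 mature 3 had the highest Cd4 (461 against 129 and 77.1), with Ccr7 at 11603 against 11852 and 12719. Of 5 gate markers, 3 were highest in F5 late 2 and 1 in TG6 mature 3. Results that rest on these libraries are given with and without them, also where they belong to neither group compared, since the spread is estimated over all 9 groups. Smaller shifts were seen in F5 mature 2, which was above its group for 39 members by a median of 1.24, and in OT-1 early 3, above its group for 40 members by a median of 0.49.

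In all 3 lines the genes of mitosis were high at early positive selection, near their lowest at late positive selection, and high again in mature CD8SP thymocytes. The mean of log2(normalized count + 1) over the 40 members was 10.59 ± 0.06 (SD, n = 3) in TG6 early, 5.72 ± 0.04 (SD, n = 2) in TG6 late and 9.85 ± 1.05 (SD, n = 3) in TG6 mature libraries. It was 11.28 ± 0.23, 6.33 ± 1.71 and 10.003 ± 0.757 (SD, n = 3) at the same stages in F5, and 11.17 ± 0.30, 7.54 ± 0.25 and 11.15 ± 0.10 (SD, n = 3) in OT-1. The wide spread in F5 late and TG6 mature came with the libraries that stand apart, at 8.31 and 11.06, while the others lay at 5.47 and 5.23 in F5 late and at 9.19 and 9.30 in TG6 mature. The 40 genes together held 0.538 to 1.02% of all normalized counts at the early stage, 0.0315 to 0.119% at the late stage and 0.201 to 0.825% at the mature stage.

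**Figure D1:**
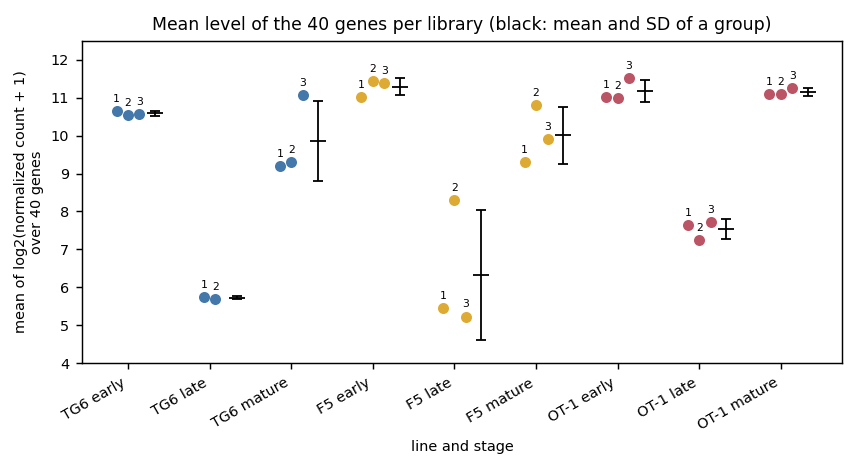
Mean of log2(normalized count + 1) over the 40 genes in each of 26 libraries (points, numbered by replicate), by line and stage, with the mean and SD of each group in black. Late libraries lie lowest in every line, TG6 mature 3 (11.06) and F5 late 2 (8.31) lie above the rest of their groups, and the 3 OT-1 late libraries lie above both TG6 late libraries.

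From early to late, 39 of 40 members fell in TG6 with a median log2 fold change of -4.95, against 13.3% of all genes tested called lower. In F5, 39 fell (median -5.15, against 14% of all genes), and in OT-1 all 40 fell (median -3.88, against 14%). From late to mature, 39 members rose in TG6 (median 4.11, against 14.5% called higher), 39 in F5 (median 3.74, against 12.2%) and 40 in OT-1 (median 3.76, against 14%). The member not called in TG6 and F5 was Kif23 in both steps. Over all genes tested, the median change of each step was between -0.02 and 0.04. Leaving out any 1 library of the groups compared kept these counts between 38 and 40. Fitted on the F5 mature and late libraries alone, 8 of 40 members were called higher in F5 mature, where 7.61% of all genes were called in either direction. The size of the steps moved with the libraries that stand apart. For Mki67, the rise in F5 was 4.99 (SE 0.77) with F5 late 2 and 6.56 (SE 0.40) without it. Its fall in F5 was -6.40 (SE 0.77) and -7.98 (SE 0.40). The Mki67 rise in TG6 was 5.68 (SE 0.86) with TG6 mature 3 and 5.09 (SE 0.90) without it.

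**Figure D2:**
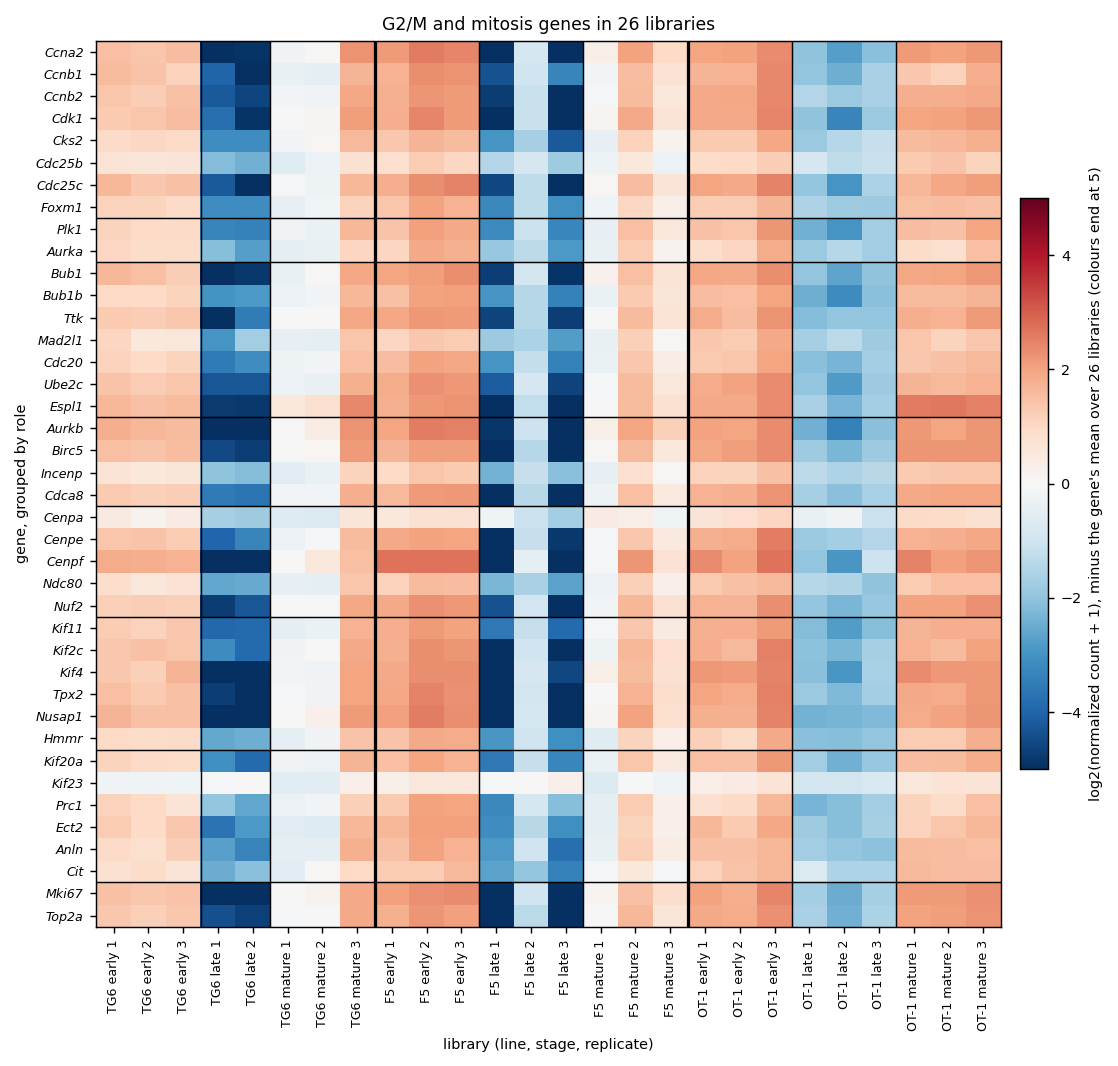
Level of each of the 40 genes (rows, grouped by role) in each of 26 libraries (columns), as log2(normalized count + 1) minus the mean of that gene over all libraries, with red above and blue below its mean. Late libraries are blue in nearly every row, Kif23 and Cenpa vary least, and F5 late 2 and TG6 mature 3 differ from their neighbours across the rows.

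The cyclin and Cdk1 group (Ccna2, Ccnb1, Ccnb2, Cdk1, Cks2, Cdc25b, Cdc25c, Foxm1) had 8 of 8 genes called lower from early to late and 8 of 8 called higher from late to mature in every line. Ccnb1, cyclin B1, had 1796, 1631 and 1336 normalized counts in TG6 early, 36.4 and 18.0 in TG6 late, and 467, 421 and 1957 in TG6 mature. It had 1934, 1988 and 3174 in OT-1 early, 150, 110 and 196 in OT-1 late, and 1529, 1318 and 2136 in OT-1 mature. Late libraries lay far below the other stages in both lines. Mature overlapped early in OT-1, and in TG6 only through TG6 mature 3. Cdc25b, the phosphatase that acts first on Cdk1, kept more of its early level than the rest of the group, with 317 and 264 normalized counts in TG6 late after 2237, 2124 and 2193 early. Its log2 fold change from early to late was -2.91 (SE 0.30, adjusted p = 2.1e-07) in TG6, -2.40 (SE 0.27, adjusted p = 1e-06) in F5 and -2.11 (SE 0.27, adjusted p = 7.2e-06) in OT-1.

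The mitotic kinases Plk1 and Aurka, which build the spindle poles, fell and rose in every line. Aurka had 817, 751 and 737 normalized counts in TG6 early, 89.5 and 56.9 in TG6 late, and 288, 301 and 821 in TG6 mature. The checkpoint and anaphase genes (Bub1, Bub1b, Ttk, Mad2l1, Cdc20, Ube2c, Espl1) had 7 of 7 called in both steps in every line. Espl1, separase, had 1600, 1414 and 1512 normalized counts in TG6 early and 17.6 and 16.7 in TG6 late. In F5 late it had 2.0, 214 and 3.1, so that F5 late 2 alone carried most of its level, and in OT-1 late it had 166, 102 and 155. The chromosomal passenger genes (Aurkb, Birc5, Incenp, Cdca8), whose complex corrects wrong attachments, also had 4 of 4 called in both steps. Aurkb, its kinase, had 4.8 and 6.0 normalized counts in TG6 late after 1218, 1090 and 1023 early, a log2 fold change of -7.44 (SE 0.84, adjusted p = 7.8e-07), while Incenp, its scaffold, had 442 and 397 after 2920, 2610 and 2779, a log2 fold change of -2.72 (SE 0.37, adjusted p = 7e-06). Members of 1 complex therefore kept unequal shares of their early level.

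At the kinetochore (Cenpa, Cenpe, Cenpf, Ndc80, Nuf2), 5 of 5 genes were called in both steps in every line, by unequal amounts. Cenpf, a large kinetochore protein, had 3551, 3411 and 3223 normalized counts in TG6 early, 17.1 and 9.7 in TG6 late, and 991, 1449 and 2728 in TG6 mature. Cenpa, the histone H3 variant that marks centromeres, had 2554, 2129 and 2488 in TG6 early, 590 and 555 in TG6 late, and 1217, 1132 and 2828 in TG6 mature. Its log2 fold change from early to late was -2.06 (SE 0.36, adjusted p = 0.00014) in TG6, -1.68 (SE 0.32, adjusted p = 0.00039) in F5 and -1.40 (SE 0.32, adjusted p = 0.0023) in OT-1. In F5 late, Cenpa had 1639, 886 and 576 normalized counts, so that F5 late 2, highest for 38 of the members, was not highest for Cenpa. The rise of Cenpa from late to mature lost its call without TG6 late 2 in TG6 (adjusted p = 0.052) and without F5 late 3 in F5 (adjusted p = 0.096).

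The spindle motors and assembly factors (Kif11, Kif2c, Kif4, Tpx2, Nusap1, Hmmr) had 6 of 6 called in both steps in every line. Tpx2, which activates Aurora A on the spindle, had 2567, 2215 and 2449 normalized counts in TG6 early, 33.1 and 27.1 in TG6 late, and 843, 791 and 3491 in TG6 mature. The cytokinesis genes (Kif20a, Kif23, Prc1, Ect2, Anln, Cit) had 5 of 6 called in both steps in TG6 and F5 and 6 of 6 in OT-1. Prc1, which bundles the central spindle, overlaps Rccd1 on the opposite strand over 21810 bases, and whether counting used strand is not given in the sources used here. Mki67, the Ki-67 coat of mitotic chromosomes, had 17443, 16189 and 16909 in TG6 early, 195 and 196 in TG6 late, and 6220, 7129 and 23175 in TG6 mature. In OT-1, Mki67 had 25127, 22110 and 34573 early, 1966, 1123 and 2011 late, and 27362, 27701 and 30471 mature. Top2a, the topoisomerase that untangles sister chromatids, had 13855, 12652 and 14116 in TG6 early and 264 and 213 in TG6 late.

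Across the members, the late level was a median of 3.26% of the early level in TG6, from 0.395% for Cenpf to 109.6% for Kif23. In F5 the median was 4.96%, from 3.17% for Cdc25c to 76.0% for Kif23, and without F5 late 2 it was 1.39%, from 0.119% for Espl1. In OT-1 the median was 6.83%, from 3.92% for Aurkb to 39.3% for Kif23. Kif23 and then Cenpa kept the largest shares in every line. More than 10% of the early level was kept by 8 members in TG6, 5 in F5 (3 without F5 late 2) and 11 in OT-1. The mature level was a median of 98.4% of the early level in OT-1, 44.0% in F5 and 72.7% in TG6, or 39.1% in TG6 without TG6 mature 3. In OT-1 the shares ran from 70.2% for Ccnb1 to 144% for Espl1. Espl1 had 3111, 3137 and 2888 normalized counts in OT-1 mature against 1869, 1899 and 2584 in OT-1 early, and was the only member with every OT-1 mature library above every early one. Ube2c, the ubiquitin-conjugating enzyme of the anaphase-promoting complex, was the only member with every OT-1 mature library below every early one, and 38 members overlapped. In F5, 34 members had all mature libraries below all early ones, and in TG6 only Cenpf had, or 40 of 40 without TG6 mature 3. The share of all genes split in this way between the stages was not counted, so these counts describe the members only.

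Kif23 encodes the kinesin MKLP1, which forms the centralspindlin complex with Racgap1 and is needed for the last step of division. The gene lies at chr9:61915905-61946774 on the minus strand (GRCm38), and no other annotated gene overlaps it. In TG6 it had 1501, 1491 and 1463 normalized counts early, 1567 and 1689 late, and 1159, 1184 and 2033 mature. In F5 it had 2073, 2471 and 2474 early, 1616, 1693 and 2023 late, and 1037, 1690 and 1445 mature. In OT-1 it had 2106, 2213 and 2738 early, 886, 882 and 1006 late, and 2494, 2711 and 2661 mature. Only in OT-1 did the late libraries lie below all libraries of the other stages. The log2 fold change from early to late was 0.13 (SE 0.20, adjusted p = 0.70) in TG6, -0.40 (SE 0.18, adjusted p = 0.10) in F5 and -1.34 (SE 0.18, adjusted p = 1.1e-05) in OT-1. With the replicate number as a block, the F5 change had an adjusted p of 0.034. From late to mature it was -0.21 (SE 0.20, adjusted p = 0.49) in TG6, -0.38 (SE 0.18, adjusted p = 0.15) in F5 and 1.504 (SE 0.18, adjusted p = 5.9e-06) in OT-1.

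These steps differed between lines for Kif23. The early to late change in OT-1 minus that in TG6 was -1.47 (SE 0.26, adjusted p = 0.0033), and Kif23 was the only member called in that test with all libraries, where 1.09% of all genes were called lower. Fitted on the groups compared alone, 18 members were called (4.48% of all genes in either direction), and without TG6 mature 3 and F5 late 2, 14 were (3.83%). The late to mature change in OT-1 was 1.71 (SE 0.26, adjusted p = 0.0018) above that in TG6, where 0.263% of all genes were called higher, and 1.88 (SE 0.25, adjusted p = 0.00027) above that in F5, where 0.415% were; Kif23 was again the only member called with all libraries. These 3 calls held without any 1 library of the groups compared. The early to late change in OT-1 minus that in F5 was -0.94 for Kif23, with adjusted p = 0.058, or 0.011 with the replicate number as a block. The TG6 and F5 steps are each set against the same OT-1 libraries. Over the 26 libraries, Kif23 followed the mean of the other members with Pearson r = 0.49, Cenpa with 0.87 and every other member with at least 0.96, over libraries that share stages and lines.

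**Figure D3:**
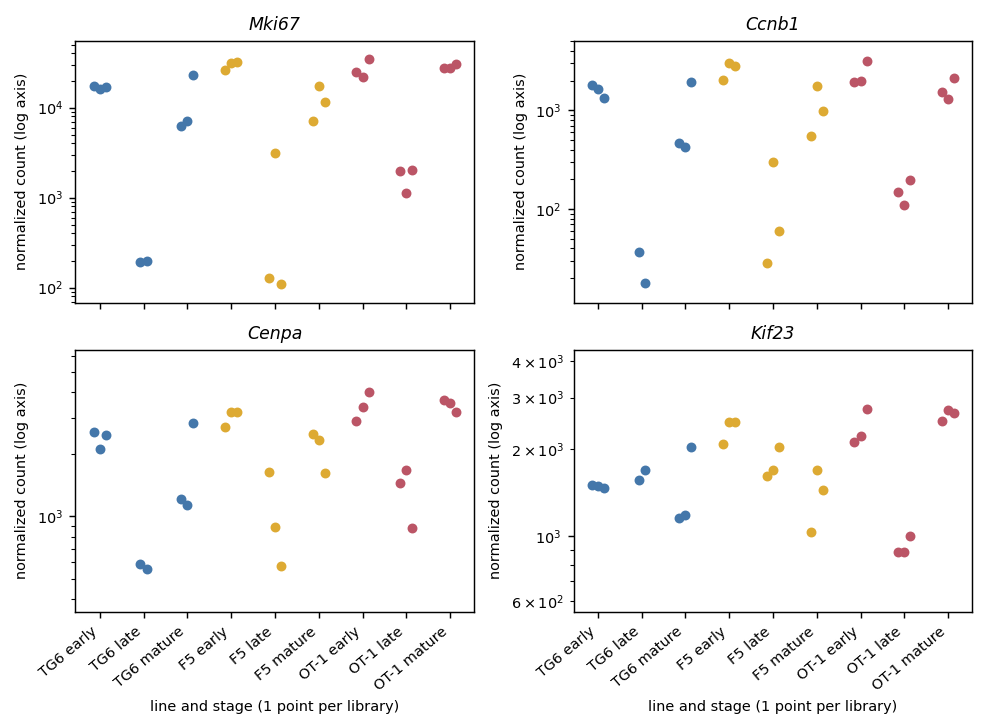
Normalized count (log axis, a separate scale for each gene) of Mki67, Ccnb1, Cenpa and Kif23 in each library, by line and stage. Mki67 and Ccnb1 drop at the late stage in every line, Cenpa drops less, and Kif23 lies between 1567 and 2023 in TG6 and F5 late libraries and between 882 and 1006 in OT-1 late libraries.

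At early positive selection TG6 had the lowest levels. Every member was higher in all F5 than in all TG6 libraries (40 of 40, against 17% of all genes tested), and 36 of 40 were higher in all OT-1 than in all TG6 libraries (against 25.1%). Medians of the log2 fold change were 0.72 for F5 minus TG6, 0.64 for OT-1 minus TG6 and -0.09 for OT-1 minus F5. In the test, only Kif23 was called, at 0.65 (SE 0.18) in both comparisons with TG6, with adjusted p = 0.028 for F5 (3.12% of all genes called higher) and 0.0083 for OT-1 (15.4% called higher). The F5 call was lost without any of 5 libraries (F5 early 2 and 3 and TG6 early 1, 2 and 3; adjusted p up to 0.10). For OT-1 minus F5, limma called 0 of 40, and 0 at an unadjusted p under 0.05, where 12.7% of all genes were called in either direction. The spread was shared among all 9 groups; fitted on the groups compared alone, 30 of 40 members were called higher in F5 than in TG6, where 10.2% of all genes were called in either direction, and 30 of 40 higher in OT-1 than TG6, where 31.4% were.

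At late positive selection the median log2 fold change over the members was above 0 for OT-1 against TG6 and against F5, while F5 late 2, with a mean of 8.31, lay above every OT-1 late library (7.25 to 7.73). Against TG6, 19 of 40 members were called higher (9.34% of all genes) and 1, Kif23, lower (6.21%), with a median log2 fold change of 1.73. No overlap between the 3 OT-1 and the 2 TG6 libraries was seen for 36 members that were higher in OT-1 (27.8% of all genes). Mki67, at 195 and 196 normalized counts in TG6 and 1966, 1123 and 2011 in OT-1, had a log2 fold change of 3.07 (SE 0.86, adjusted p = 0.018). Ccnb1 had 2.48 (SE 0.69, adjusted p = 0.017) and Aurkb, at 4.8 and 6.0 in TG6 and 63.7, 32.1 and 79.7 in OT-1, had 3.12 (SE 0.84, adjusted p = 0.014). The largest was Cenpf, at 17.1 and 9.7 in TG6 and 249, 129 and 469 in OT-1, with 4.16 (SE 1.15, adjusted p = 0.016). Kif23 went the other way, with -0.82 (SE 0.20, adjusted p = 0.0065). By role, 7 of 8 cyclin and Cdk1 genes, 2 of 7 checkpoint genes, 2 of 4 passenger genes, 3 of 5 kinetochore genes, 3 of 6 spindle genes, 2 of 2 chromosome genes, 0 of 6 cytokinesis genes and neither Plk1 nor Aurka were called higher. Plk1, at 51.9 and 49.1 in TG6 and 97.3, 65.9 and 153 in OT-1, was not called. TG6 late had 2 libraries. Without TG6 late 2 only 1 member was called (6.72% of all genes in either direction), without TG6 late 1 only 3 (7.76%), and without OT-1 late 1, 2 or 3 there were 8 (10.7%), 12 (11.6%) and 7 (13.3%). The count went up without a library of another group, to 26 higher without TG6 mature 3 (12.3% of all genes) and 29 higher without F5 late 2 (9.51%), with Kif23 lower in both.

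Against F5 at the late stage, 9 of 40 members were called higher in OT-1 (13.6% of all genes) and Kif23 lower (10.4%), with a median log2 fold change of 1.27. Fitted on the F5 and OT-1 late libraries alone, 1 member was called, where 16.2% of all genes were called in either direction. All OT-1 libraries were above all F5 libraries for 1 of 40 members, Cit, against 19.7% of all genes. The 9 were Ccnb2, Cks2, Espl1, Birc5, Cdca8, Cenpe, Cit, Mki67 and Top2a. Without F5 late 2, 27 members were called higher (11.4% of all genes), with a median of 2.14, and Kif23 lower. Without F5 late 1 or 3, 3 and 2 members were called in all (25.1% and 16.9% of all genes in either direction). Without both F5 late 2 and TG6 mature 3, 32 were called higher (14.4%) and 1 lower. Mki67 had 127, 3139 and 109 normalized counts in F5 late, so that the 3 OT-1 libraries, at 1966, 1123 and 2011, lay between F5 late 2 and the others. Its log2 fold change was 2.22 (SE 0.77, adjusted p = 0.039), a call lost without any other library than F5 late 2. Kif23, at 1616, 1693 and 2023 in F5 and 886, 882 and 1006 in OT-1, had -0.94 (SE 0.18, adjusted p = 0.00044) and did not overlap. Cit, citron kinase of the cleavage furrow, had 83.8, 144 and 51.4 in F5 and 329, 189 and 189 in OT-1, a log2 fold change of 1.40 (SE 0.33, adjusted p = 0.0034). For F5 minus TG6 at the late stage limma called 0 of 40 members, and 4 at an unadjusted p under 0.05, where 4.97% of all genes were called. The median log2 fold change was 0.68 with all libraries and -0.23 without F5 late 2. In that fit 3 members were called lower in F5 (2.9% of all genes), Espl1 at -2.37 (SE 0.45, adjusted p = 0.0022), Kif2c at -2.38 (SE 0.54, adjusted p = 0.011) and Cenpe at -1.93 (SE 0.50, adjusted p = 0.028).

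In mature CD8SP thymocytes both medians were again above 0 for OT-1, and how many members were called against TG6 turned on TG6 mature 3. With all libraries, 7 of 40 members were called higher in OT-1 than TG6 (4.67% of all genes), with a median log2 fold change of 1.29, and 16 were higher in all OT-1 than in all TG6 libraries (10.7%). The 7 were Cdc25b, Foxm1, Incenp, Cenpa, Ndc80, Kif23 and Cit. Without TG6 mature 3, 29 were called higher (15% of all genes), with a median of 1.92. Without any other library of these groups 2 to 4 were, where 4.48 to 7.3% of all genes were called in either direction. With F5 late 2 left out as well, 40 of 40 were called (15.3%), and without F5 late 2 alone, 21 were (4.91%). TG6 mature 1 and 2 lay below all 3 OT-1 libraries for 40 of 40 members, while TG6 mature 3 lay below the OT-1 range for 16, within it for 19 and above it for 5. Mki67 shows this, with 6220, 7129 and 23175 normalized counts in TG6 and 27362, 27701 and 30471 in OT-1, and was not called. The share of all genes with TG6 mature 1 and 2 below OT-1 was not counted, and 2 libraries separate from 3 more easily than 3 do. Cdc25b, at 924, 1144 and 2373 in TG6 and 3537, 3739 and 3011 in OT-1, did not overlap and had a log2 fold change of 1.33 (SE 0.27, adjusted p = 0.0025). Kif23 had 0.90 (SE 0.18, adjusted p = 0.0021), and both calls held without any 1 library of these groups. Those of Foxm1, Cenpa and Ndc80 held only in the fit without TG6 mature 3. Fitted on the TG6 and OT-1 mature libraries alone, 0 of 40 members were called, where 1.65% of all genes were.

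Against F5 in mature thymocytes, 6 of 40 members were called higher in OT-1 (13.3% of all genes), with a median log2 fold change of 1.13, and 30 of 40 were higher in all OT-1 than in all F5 libraries (21.9%). The 6 were Cks2, Cdc25b, Foxm1, Incenp, Kif23 and Cit. Cdc25b, at 1177, 2012 and 1145 in F5, had a log2 fold change of 1.29 (SE 0.27, adjusted p = 0.0016). Cit, at 532, 797 and 512 in F5 and 1707, 1608 and 1598 in OT-1, had 1.44 (SE 0.33, adjusted p = 0.0035). Mki67, at 7016, 17259 and 11653 in F5, did not overlap OT-1 and was not called. Without F5 mature 2, 14 members were called (24.6% of all genes in either direction), and without any other library of these groups 3 or 4 (13.9 to 18.8%). Without TG6 mature 3 the count was 12 (16.8% of all genes), and without F5 late 2 it was 19 (13.4%). Without both it was 36 (29.7% of all genes in either direction). Fitted on the F5 and OT-1 mature libraries alone, it was 10 (15.4% in either direction). For F5 minus TG6 at this stage, limma called 0 of 40, and 0 at an unadjusted p under 0.05, where 6.64% of all genes were called, with a median log2 fold change of 0.15, or 0.79 without TG6 mature 3. The OT-1 comparisons with TG6 and with F5 share the OT-1 libraries.

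**Figure D4:**
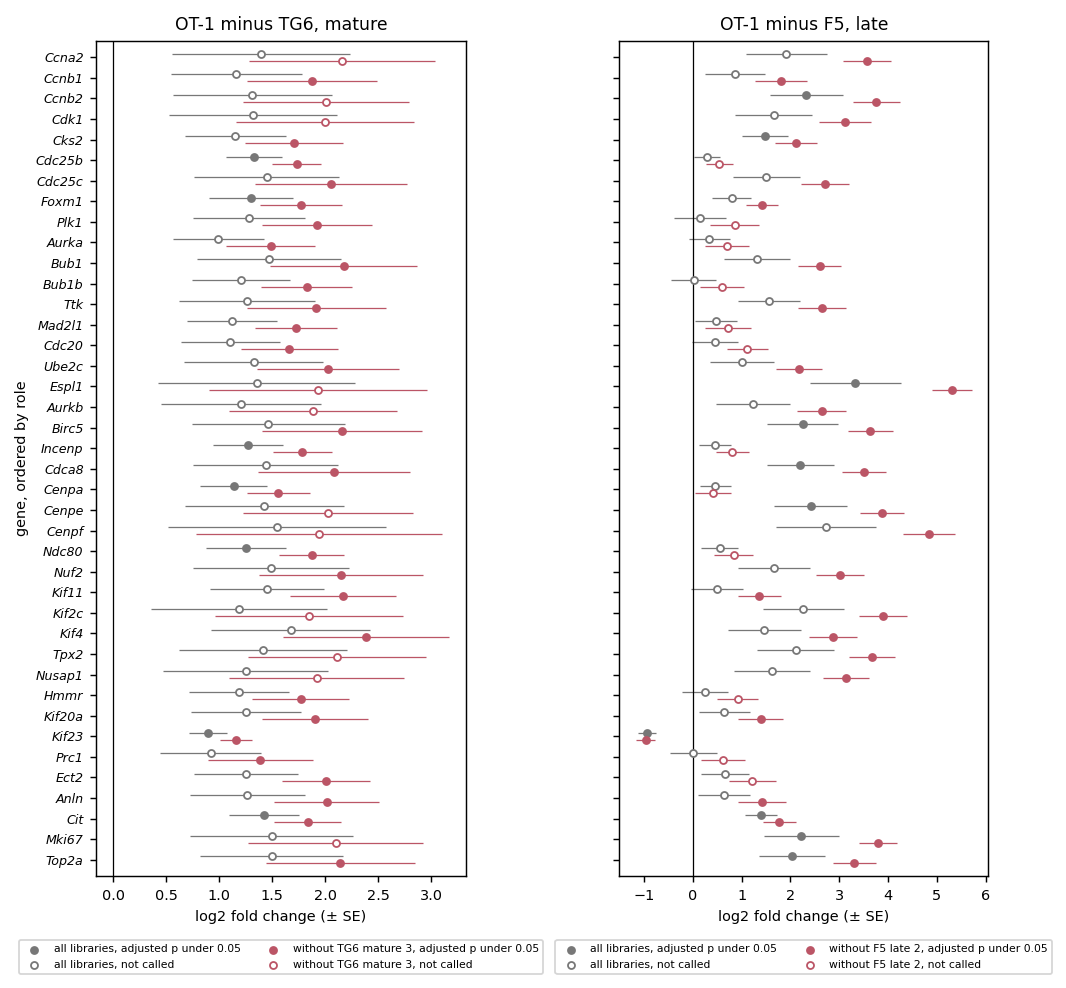
Log2 fold change (± SE) of each of the 40 genes for OT-1 minus TG6 at the mature stage (left) and OT-1 minus F5 at the late stage (right), with all libraries (grey) and without the library that stands apart (red), filled where the adjusted p is under 0.05. Filled points rise from 7 to 29 on the left, and on the right from 10 to 28, with Kif23 below 0 in both fits.

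Other tests of whether steps differed between lines depended on the libraries that stand apart. For OT-1 minus F5 in the early to late step, limma called 0 of 40, and 10 at an unadjusted p under 0.05, where 1.68% of all genes were called in either direction. Without F5 late 2, 21 members were called, all with a smaller fall in OT-1 than in F5 (1.56% of all genes). Without F5 late 2, the fall was also called smaller in OT-1 than in TG6 for 5 members (1.08%) and larger in F5 than in TG6 for 3 (1.24%), and the late to mature rise was called smaller in OT-1 than in F5 for 5 (0.483%). For OT-1 minus TG6 in the late to mature step, the median over the members was -0.43 with all libraries and 0.17 without TG6 mature 3, and for F5 minus TG6 it was -0.46 and 0.14. For F5 minus TG6, 0 members were called in the early to late step, with 0 at an unadjusted p under 0.05 (2.08% of all genes), and 0 in the late to mature step, with 1 at an unadjusted p under 0.05 (0.116%).

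Some markers of earlier thymocyte stages, among them Rag1, Dntt and Ptcra, were also highest in the libraries that stand apart. Rag1, which cuts receptor genes, had 696, 620 and 5265 normalized counts in TG6 mature and 62.3, 1658 and 109 in F5 late, a line labelled Rag1KO in which Rag1 RNA was nevertheless counted, at 10835, 15149 and 16266 early. Which part of the gene the deletion removes is not given in the sources used here. Dntt, the terminal transferase of receptor rearrangement, had 1596, 1267 and 7845 normalized counts in TG6 mature and 3038, 5122 and 3875 in F5 late. Ptcra, the pre-T cell receptor alpha chain, had 94.9, 94.5 and 787 in TG6 mature and 11.2, 47.2 and 21.4 in F5 late. It is 1 of 5 double-negative markers, of which 3 were highest in TG6 mature 3 (sum 2081 against 1575 to 1777) and 2 in F5 late 2 (sum 722 against 645 to 781), while Il7r and Cd44 were lowest in both. The 7 dendritic cell markers were all highest in TG6 mature 3 as well (sum 2465 against 1179 to 1231), led by Cd74 at 661, 636 and 1253, whereas in F5 late 2 only 3 of 7 were highest, with a sum of 93.5 against 71.4 to 116. In F5 mature 2 they were all highest too (sum 944 against 274 to 425), with Dntt at 8516 against 3493 and 5628. Of the myeloid list, 4 of 9 were highest in TG6 mature 3 (sum 1201 against 655 to 815), and of the B cell list 3 of 7 (sum 7104 against 6392 to 6678). Foxn1 and Krt5 of thymic epithelium and Ncr1 of natural killer cells were at 0 in both groups. Other genes of these lists were not, such as Gzma at 236, 240 and 1633 and Epcam at 21.2, 21.3 and 34.5 in TG6 mature. Of the natural killer cell list only 1 of 6 was highest in TG6 mature 3 (sum 2997 against 2910 to 2950). Of the thymic epithelium list also only 1 of 6 was, and its sum was lower there (45.8 against 54.3 to 56.3). Within OT-1, the library with the highest mean of the members also had the highest Dntt at the early stage (9799 against 6856 and 7107) and at the mature stage (2545 against 1104 and 1446). In F5 early the highest mean was in F5 early 2 and the highest Dntt in F5 early 3, and in TG6 early they were in TG6 early 1 and TG6 early 3. Between lines, Rag1 and Dntt were lower in all OT-1 than in all TG6 early libraries. Rag1 had 4303 to 6987 against 51114 to 58364 normalized counts, and Dntt 6856 to 9799 against 17728 to 20437. Some markers listed for other cells were called higher in OT-1. Of 9 myeloid markers, 6, 3 and 1 were called higher against TG6 and 4, 5 and 3 against F5 at the early, late and mature stages, with summed levels of 594 to 682 in OT-1 late, 481 to 494 in TG6 late and 562 to 657 in F5 late, and 1 was called lower in each early comparison. Of 7 dendritic cell markers, 5, 0 and 0 were called higher against TG6 and 3, 4 and 0 against F5, while 0, 2 and 1 were called lower against TG6. Of 6 natural killer cell markers, only Eomes, Gzma and Nkg7 passed the filter on low values. Of these 3, 2, 2 and 1 were called higher against TG6, and as many against F5. Nkg7 was between 1328 and 2793 normalized counts in every mature library, and Ncr1 was at 0 in every library. Over all genes tested, 27.8%, 15.5% and 9.74% were called in either direction for OT-1 against TG6 at the 3 stages. Against F5 the shares were 12.7%, 24% and 23.3%. The part of these markers in the results was not tested.

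**Figure D5:**
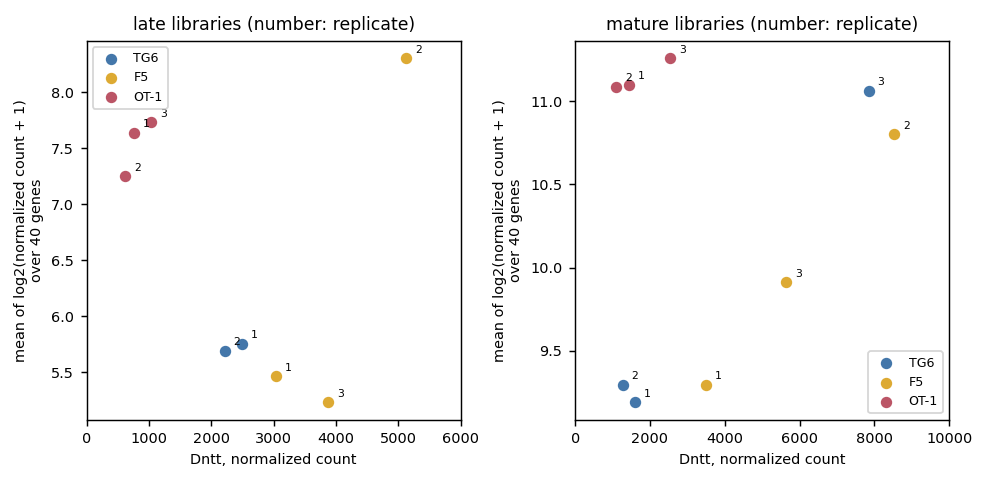
Mean of log2(normalized count + 1) over the 40 genes against the normalized count of Dntt in late (left) and mature (right) libraries, 1 point per library, numbered by replicate. F5 late 2 (Dntt 5122), TG6 mature 3 (7845) and F5 mature 2 (8516) lie high on both axes within their lines, while OT-1 mature libraries lie at 11.09 to 11.26 with Dntt at 1104 to 2545.

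The genes outside the 40 whose levels were most like the mean of the members over 26 libraries included Ckap2l, Rrm2, Kif15, Cdca3, Ckap2, Diap3, Sgol2a, Kif14 and Shcbp1, with Pearson r between 0.993 and 0.995, over libraries that share stages and lines. Of 87 further G2/M genes, 82, 83 and 82 fell from early to late (13.3%, 14% and 14% of all genes) and 77, 74 and 83 rose from late to mature (14.5%, 12.2% and 14%) in TG6, F5 and OT-1. At the late stage 24 of the 87 were called higher (9.34% of all genes) and 1 lower (6.21%) in OT-1 against TG6, and at the mature stage 13 higher and 0 lower (4.67% of all genes called higher), or 64 higher without TG6 mature 3 (15%). Racgap1, the partner of Kif23, had a log2 fold change of 1.41 (SE 0.30) with all libraries. Mad1l1, a checkpoint protein, was called lower in OT-1 against TG6, early (-1.18, SE 0.15) and late (-0.69, SE 0.17). Of 39 genes of DNA replication and S phase, 37, 39 and 38 fell from early to late (the same shares of all genes), and 17 were already called higher in OT-1 at the early stage when set against TG6 (median 0.83), or 26 without TG6 mature 3 (15.4% and 18.3% of all genes).

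Of 15 genes of the MuvB, Myb, E2F and NF-Y machinery, 8, 12 and 12 fell from early to late in TG6, F5 and OT-1 (13.3%, 14% and 14% of all genes). From late to mature 6, 8 and 12 rose, where 22.3%, 20.5% and 24.4% of all genes were called in either direction. E2f8, an E2F repressor of the later cell cycle, had log2 fold changes from early to late of -6.47 (SE 1.13), -7.73 (SE 1.01) and -4.77 (SE 1.01) in the 3 lines, and Mybl1 of -3.59 (SE 0.62), -3.37 (SE 0.55) and -2.95 (SE 0.55). Of 12 genes of cell cycle arrest and quiescence, 1, 1 and 3 rose (12.1%, 12.7% and 12.7% of all genes) and 5, 3 and 3 fell (13.3%, 14% and 14%) from early to late. Foxo1, a quiescence factor, was called higher at the late stage in every line, at 1.22 (SE 0.21), 1.26 (SE 0.18) and 1.18 (SE 0.18), and Cdkn2c, which encodes the inhibitor p18, was called lower, at -2.97 (SE 0.40), -3.15 (SE 0.36) and -3.13 (SE 0.36). Klf2, a quiescence and egress factor, was called higher in OT-1 against TG6, both early (2.58, SE 0.50) and late (3.05, SE 0.56). Btg2 (-1.13, SE 0.18) and Ccng2 (-0.51, SE 0.10) were called lower early, and Ccng2 (-0.53, SE 0.11) also late. Of the 12 genes, 1 was called higher and 2 lower early, where 27.8% of all genes were called in either direction. At the late stage 2 were called higher and 1 lower, where 15.5% were called.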

How the data were processed

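RNA from 26 sorted thymocyte libraries was sequenced, and per the submitters' processing notes the authors used Trimmomatic 0.32, Bowtie2 2.3.2, RSEM 1.2.31 and DESeq2 on mm10. The deposited values are a signal, RSEM estimated counts divided by DESeq2 size factors, so that reads could not be recovered and no count model was run; strandedness is not given in the sources used here. Library totals after this scaling do not give the depth of each library; the study's methods give 1 target depth for all.

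Values were tested as log2(value + 1) with limma 3.58.1 in R 4.3.3, on 16372 symbols with at least 10 in at least 2 libraries. Means of 9 groups were fitted with a trended variance and 17 residual degrees of freedom, with Benjamini-Hochberg adjustment separately for the 21 comparisons (threshold 0.05). Data were also simulated for OT-1 minus TG6 at the mature stage (16372 genes). The fit recovered 78 of 100 genes with a log2 change of 1 and 95 of 100 with a change of 2. It called 11 of 16172 unchanged genes. These shares do not give the power for the members, whose spread was wide. In the measured comparison their median log2 fold change was 1.29, with standard errors of 0.18 to 1.02, and 7 of 40 were called.

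The members and lists were chosen with earlier results of these data known. Named genes were any of the 40 members, per comparison the 2 called genes with the largest fold in each direction from each other list, and the 10 other genes most correlated with the members' mean. Replicate numbers were checked as pairs, by correlating deviations of libraries with the same number. The correlation was above 0.1 in 9 of 9 pairs within F5 and 5 of 9 within OT-1. It was above 0.1 in 2 of 7 within TG6 and 2 of 75 between lines. Only between the F5 stages did every pair pass. The main fit nevertheless used no pairing in any line, so its F5 steps leave it out. The replicate block was run only as an alternative. Alternatives were a pseudocount of 5, no filter, equal totals, quantile normalization, the compared groups alone, a replicate block and leaving out libraries. A few marker and correlated genes are not reported here.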

Additional observations from a re-analysis of the deposited data

Results flagged for a closer look

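Kif23 was the member whose change between stages differed between lines in 3 tests of the difference itself (limma). In the early to late step of OT-1 against TG6, in the late to mature step of OT-1 against TG6, and in the late to mature step of OT-1 against F5, the number of members called was 1 each time, and it was Kif23.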

How the results depend on the processing

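Counts of members called in each step kept within 38 to 40 with any 1 library of the groups compared left out. Leaving out 1 such library at a time gave 1 to 12 for OT-1 minus TG6 at the late stage, 2 to 29 at the mature stage and 1 to 1 at the early stage; 2 to 28 for OT-1 minus F5 late, 3 to 14 mature, 0 to 21 in late minus early and 1 to 6 in mature minus late; and 0 to 1 for F5 minus TG6 early, 0 to 3 late and 0 to 3 in late minus early. Fitted on the compared groups alone, OT-1 minus TG6 gave 30 early (with 31.4% of all genes called in either direction), 31 late (18.2%), 0 mature (1.65%) and 18 in late minus early (4.48%), OT-1 minus F5 gave 1 late (16.2%), 10 mature (15.4%) and 1 in late minus early (1.55%), F5 minus TG6 gave 30 early (10.2%), and F5 mature minus late gave 8 (7.61%). Leaving out TG6 mature 3 and F5 late 2 together, an alternative chosen after seeing the data, gave for OT-1 minus TG6 7 early (33.1%), 34 late (20.6%), 40 mature (27.5%), 14 in late minus early (3.83%) and 2 in mature minus late (3.49%), for OT-1 minus F5 33 late (23.7%), 36 mature (29.7%), 27 in late minus early (3.49%) and 13 in mature minus late (2.3%), and for F5 minus TG6 5 early (10.6%), 4 late (5.97%), 3 mature (8.92%), 6 in late minus early (3.26%) and 4 in mature minus late (0.415%). The median over the members turned sign for F5 minus TG6 at the late stage (0.68 to -0.23 without F5 late 2) and, without TG6 mature 3, in mature minus late for OT-1 minus TG6 (-0.43 to 0.17) and F5 minus TG6 (-0.46 to 0.14). Beyond the fits' own construction the cause of these moves was not tested.

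With the replicate number as a block, OT-1 minus F5 in late minus early had 1 member called in place of 0, Kif23, and F5 late minus early had 40 in place of 39. The block moved no other count by over 1.5 times. The pseudocount, filter, equal total and quantile alternatives also moved no count by over 1.5 times. TG6 late had 2 libraries, and the depth of each library is not given, which limits low values such as Aurkb at the late stage.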
